A study of Mus musculus with 12 samples.

Results

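Ribosome biogenesis, the making of ribosomal RNA and its assembly with proteins into the subunits of the ribosome, was followed through 40 genes in NU1 cells, a mouse urothelial line that became immortal on its own during serial passage. The 40 symbols formed a given list of genes with known roles in this process. The rule that picked their rows used no measured value, but the list was chosen with earlier results of these data known. All 40 had a row among the 23337 rows of the count table, and all 40 passed the filter on low counts that left 12406 genes for testing. Their counts ran from 177 to 32545 reads per gene and library.

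The series held 12 libraries in 4 groups of 3. Cells were either proliferating, in medium with 15% serum, 5 ng/ml EGF and 0.3 mM CaCl2, or quiescent, which here means grown to confluence and then kept in the same medium with 1 µM rosiglitazone, an activator of the nuclear receptor PPAR gamma, and 0.5 µM erlotinib, an inhibitor of the EGF receptor kinase, to day 7. In each state the cells carried either a lentiviral control hairpin (shNT, called control) or a lentiviral hairpin against Stag2 (sh4, called knockdown). STAG2 is a part of cohesin, a ring-shaped complex that keeps sister chromatids together and shapes chromatin loops. Each group was made once in experiments 5, 7 and 9, which the labels also give as batches 3, 1 and 2, so p-values here measure the spread between 3 experiments on 1 cell line. The knockdown libraries carry a single hairpin against Stag2, so loss of Stag2 and other effects of that hairpin cannot be told apart. Every quiescent library had confluence, rosiglitazone, erlotinib and day 7 together, so effects of these and of quiescence itself cannot be told apart. Below, quiescence stands for all of them together. The series' title joins STAG2 with DREAM, a repressor complex of quiescent cells, and asks about the upkeep of quiescence in the urothelium.

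Library totals ran from 14524429 to 21987539 counts. Stag2 itself checked the labels: it stood at 139, 145 and 113 CPM (counts scaled to a common library total) in the proliferating control libraries of experiments 5, 7 and 9 and at 33.3, 24.9 and 24.6 CPM in the proliferating knockdown libraries. In quiescent cells it stood at 128, 126 and 107 CPM in control and at 9.43, 15.3 and 11.7 CPM in knockdown libraries. Knockdown lowered Stag2 by a log2 fold change of -2.26 (adjusted p = 0.00121) in proliferating and -3.32 (adjusted p = 3.39e-05) in quiescent cells. Of 15 urothelial markers, 12 passed the filter. All 15 together summed to 10700 to 19500 CPM, mostly from keratins 7, 8 and 18 and E-cadherin. Krt5, Krt14, Upk1a, Upk1b and Upk2 were low, reaching at most 6.6, 10.6, 3.94, 2.23 and 1.45 CPM in any library. Trp63, a marker of basal urothelium, had no count in any library and Upk3a, a uroplakin of the umbrella cell layer, had 1 count in all 12 libraries together. The 9 fibroblast and smooth muscle markers summed to at most 2.56 CPM, and the 7 immune and endothelial markers in the table to at most 0.996 CPM.

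Ribosomes are built in the nucleolus. RNA polymerase I copies the ribosomal DNA into a long precursor, small nucleolar ribonucleoproteins (snoRNPs) of the box C/D and box H/ACA classes guide its methylation and pseudouridylation, and a large early complex, the small-subunit processome, folds and cuts it; separate factors then finish the small and the large subunit and escort them to the cytoplasm. The process costs a growing cell much of its energy, and growth signals and the transcription factor Myc are known to raise many of its genes, while cells that leave the cycle are known to make fewer ribosomes. Myc binds with its partner Max to the E-box CACGTG.

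The E-box sequences are shown because many ribosome biogenesis genes are known Myc targets, and because the shares below rest on them. RefSeq promoters of build GRCm38.p6, from 250 bases before to 50 bases after the annotated start, were matched for 34 of the 40 genes, the others being Fbl, Tcof1, Rrp12, Bop1, Rrs1 and Npm1. CACGTG, which reads the same on both strands, lay in 8 of the 34 promoters (23.5%), against 11.9% of 8900 promoters of tested genes and 8.09% of all 27025 promoters. In 7 of the 8 it lay in the 50 bases after the start, which is 20.6% of the 34 genes against 1.91% of the promoters of tested genes and 1.28% of all promoters; that narrower stretch was chosen after the sites had been seen. Each line gives 30 bases read on the gene's own strand with the E-box in capitals.
Pes1: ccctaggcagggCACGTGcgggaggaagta
Wdr43: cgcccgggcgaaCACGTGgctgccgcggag
Tsr1: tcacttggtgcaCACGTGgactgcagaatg
Ltv1: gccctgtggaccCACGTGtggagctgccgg
Utp20: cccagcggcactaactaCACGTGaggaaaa
Pno1: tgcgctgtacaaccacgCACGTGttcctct
Mybbp1a: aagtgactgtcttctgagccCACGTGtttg
Nop2: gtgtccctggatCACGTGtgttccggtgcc

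The Pes1 window spans chr11:3963965-3963994 on the plus strand, and its E-box begins 2 bases after the start. The E-box begins 17 bases after the start in Wdr43 (chr17:71616220-71616249, plus strand) and 24 bases after it in Tsr1 (chr11:74898092-74898121, plus strand). It begins 28 bases after the start in Ltv1 (chr10:13193092-13193121, minus strand), 37 bases after it in both Utp20 (chr10:88826765-88826794, minus strand) and Pno1 (chr11:17211540-17211569, minus strand), and 40 bases after it in Mybbp1a (chr11:72441347-72441376, plus strand). Nop2 (chr6:125131811-125131840, plus strand) is the exception, with the E-box 60 bases before the start.

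Further motifs were searched on both strands of the same promoters, for factors tied to the cell cycle and to housekeeping genes. The ETS motif CCGGAAGT lay in 23.5% of the 34 promoters, 9.19% of those of tested genes and 4.31% of all promoters. The E2F forms TTTGGCGC, TTTCGCGC, TTTCCCGC and TTTGCCGC, any 1 of them, lay in 11.8%, 4.82% and 2.6% of the same sets. The CHR element TTTGAA, the site of DREAM in cell-cycle genes, lay in 14.7% of the 34 promoters, 14.0% of those of tested genes and 20.2% of all promoters. A match is a run of letters and was not tested for binding.

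Levels of the 40 genes spread widely when set per kilobase of annotated exon. The length used joins the exons of all annotated transcripts of a gene and can exceed that of a single mRNA, so ranks between genes are rough. In proliferating control cells Npm1, the nucleolar chaperone nucleophosmin, stood highest at 553 ± 194 CPM per kb (SD, n = 3). The next were Ncl, the RNA-binding protein nucleolin, at 108 ± 25.3, Mybbp1a at 99.5 ± 42.0 and Nhp2 at 97.2 ± 35.7 CPM per kb, which did not differ beyond their spread. The lowest were Rrp1b at 4.53 ± 1.27 and Wdr12 at 2.85 ± 0.856 CPM per kb. The joined exons of Wdr12 span 11955 bases, and before division by length its mean of 34.0 CPM lay above the 21.2 CPM of Dimt1. In quiescent control cells Npm1 was still the highest, at 250 ± 58.6 CPM per kb. Reads of Npm1 may in part come from, or be lost to, its processed pseudogenes, so its level is uncertain.

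Quiescence in control cells lowered 15 of the 40 genes and raised none (edgeR's quasi-likelihood test with Benjamini-Hochberg adjustment over all 12406 genes, adjusted p under 0.05), where 11.7% of all tested genes were called lower and 8.33% higher. Their log2 fold changes, quiescent over proliferating, had a median of -0.77 and ran from -1.83 for Dkc1 to 0.01 for Nop10, with 39 of 40 below 0, while the median over all tested genes was 0.00. When the experiment was kept as a block, 34 genes were called lower and none higher, against 18.5% and 16.8% of all tested genes, and the median was -0.74. Within experiments, 37 genes were lower in quiescence in all 3 (31.5% of tested genes were), and for 12 genes the 2 groups did not overlap, every quiescent library lying below every proliferating one (18.5% of tested genes). In bulk RNA, fewer cells that express a gene and less of its RNA per cell cannot be told apart, and CPM are shares of each library, so a change in the total RNA of a cell is not seen.

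**Figure D1:**
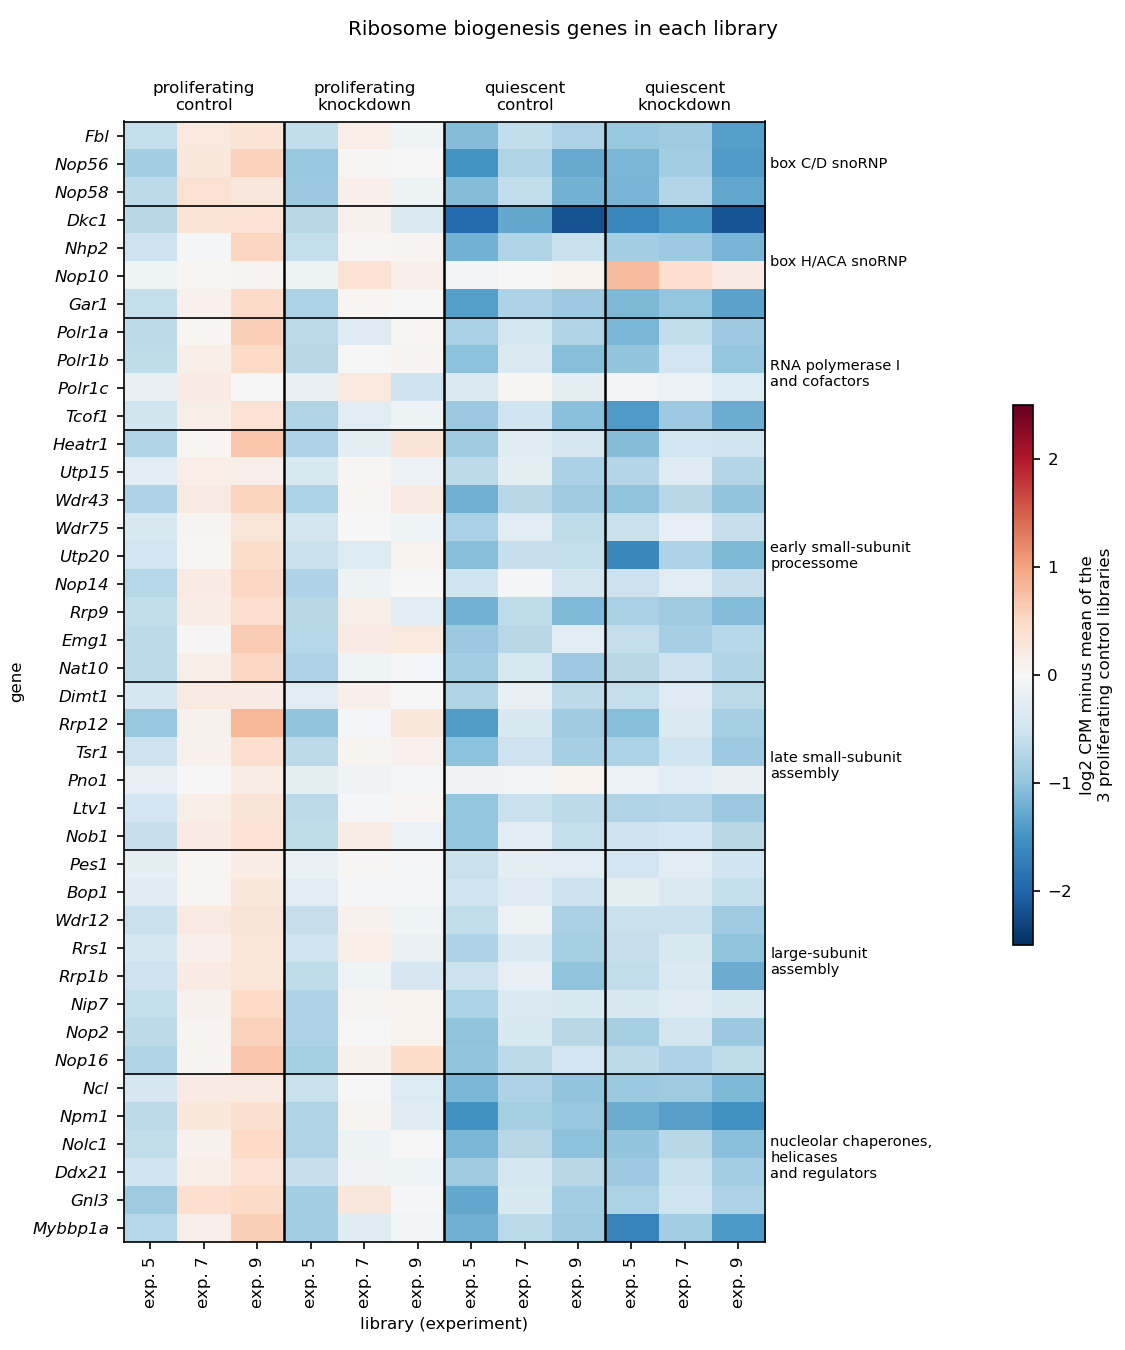
Each row is 1 of the 40 genes and each column 1 of the 12 libraries, and colour gives log2 CPM minus the mean of the 3 proliferating control libraries (blue lower, red higher). The quiescent libraries are blue for nearly all genes, and Pno1 and Polr1c stay pale there. Nop10 is pale in quiescent control libraries and lies at 0.795, 0.422 and 0.214 in the quiescent knockdown libraries of experiments 5, 7 and 9. It lies at 0.364 in the proliferating knockdown library of experiment 7. The column of experiment 5 is bluer than its neighbours in both proliferating groups.

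The most negative log2 fold changes were those of 2 snoRNP core proteins, Dkc1 and Nop56, and the roles were not compared by a test. All 3 box C/D proteins were called lower, with a median log2 fold change of -1.01. Nop56 (chr2:130274430-130279313, GRCm38), a scaffold of the box C/D particle, stood at 148, 318 and 399 CPM in the proliferating control libraries of experiments 5, 7 and 9 and at 94.3, 157 and 111 CPM in the quiescent ones. The groups overlapped, since the proliferating library of experiment 5 lay below the quiescent library of experiment 7, and the log2 fold change was -1.25 (SE 0.36, adjusted p = 0.0315). Fbl (chr7:28169710-28179269), the methyltransferase fibrillarin, stood at 102, 184 and 196 CPM against 72.6, 100 and 90 CPM. Its groups did not overlap, though by a narrow margin, and it fell to 54.5% of the proliferating level (log2 fold change -0.88, SE 0.26, adjusted p = 0.0376). Nop58, the other scaffold, fell by 1.01 on the log2 scale.

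Among the 4 box H/ACA proteins, with a median of -0.97, 3 fell and the fourth did not pass the test. Dkc1 (chrX:75095854-75109777), the pseudouridine synthase dyskerin, stood at 39.5, 81.2 and 82.6 CPM in proliferating and at 16.6, 26.4 and 14.2 CPM in quiescent control libraries. The highest quiescent library lay well below the lowest proliferating one, and Dkc1 fell to 28.1% of its proliferating level (log2 fold change -1.83, SE 0.34, adjusted p = 0.00372), the most of the 40 genes. Nhp2 and Gar1, which sit with dyskerin in the same particle, had log2 fold changes of -0.88 and -1.06, both called. Nop10 (chr2:112261926-112263269), the smallest protein of the particle, stood at 38.7, 43.3 and 43.9 CPM in proliferating and at 40.2, 42.3 and 44.4 CPM in quiescent control libraries. The groups overlapped, with the lowest of the 6 values in a proliferating and the highest in a quiescent library, and its log2 fold change was 0.01 (SE 0.16, adjusted p = 0.967).

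**Figure D2:**
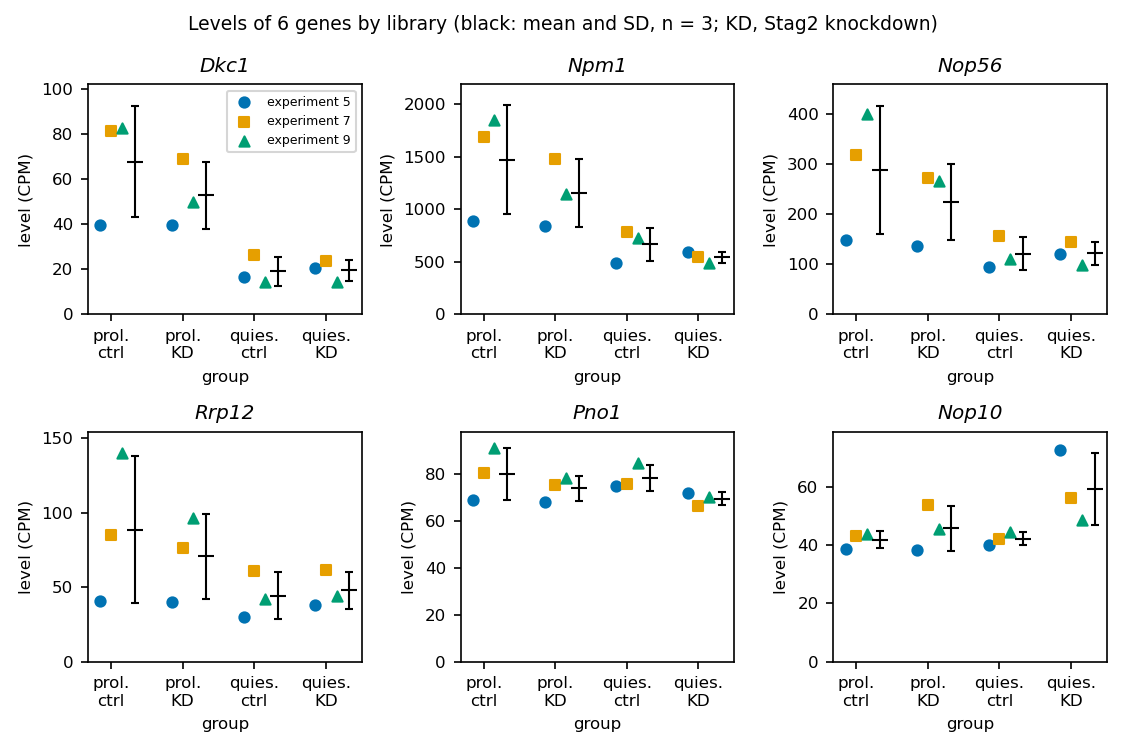
Levels in CPM of 6 genes by group, with 1 point per library, coloured by experiment, and the mean and SD of the 3 libraries in black. Dkc1, Npm1 and Nop56 sit lower in both quiescent groups, and Rrp12 spreads from 41.0 to 140 CPM among the proliferating control libraries. Pno1 is nearly level, and the mean of Nop10 is highest in quiescent knockdown cells.

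RNA polymerase I was covered by its 2 largest subunits, by Polr1c, and by Tcof1, and the 4 had a median log2 fold change of -0.80. Tcof1, the treacle protein that helps the polymerase at ribosomal DNA, fell to 55.7% of its proliferating level (log2 fold change -0.84, SE 0.25, adjusted p = 0.033), the only call of the group; with the experiment as a block Polr1a and Polr1b were called too. Polr1b (chr2:129100995-129126594) stood at 34.7, 60.1 and 76.6 CPM in proliferating and 26.6, 42.4 and 26.1 CPM in quiescent control libraries. Experiment 7 was highest of the quiescent libraries and overlapped the proliferating library of experiment 5, and the log2 fold change of -0.85 (SE 0.31) had an adjusted p of 0.0739, or 0.0134 with the block. Polr1c (chr17:46243920-46248054), a subunit that polymerase I shares with polymerase III, stood at 45.0, 59.3 and 50.9 against 39.9, 53.3 and 43.4 CPM. Its groups overlapped in part, 2 of the 3 quiescent libraries lying below every proliferating one, and it was lower in each experiment (by differences of -0.18, -0.15 and -0.23 in log2 CPM for experiments 5, 7 and 9), but it was not called in either fit (log2 fold change -0.18, SE 0.19, adjusted p = 0.531, or 0.325 with the block).

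In the early small-subunit processome the median over 9 genes was -0.70 on the log2 scale, and 2 were called lower, or 8 with the block. Rrp9 (chr9:106475963-106485424), a protein of the U3 snoRNP that pairs with the precursor RNA, stood at 31.5, 54.8 and 64.6 CPM in proliferating and at 21, 31.0 and 22.5 CPM in quiescent control libraries. The 2 groups did not overlap, but only just, and Rrp9 fell to 49.4% (log2 fold change -1.02, SE 0.27, adjusted p = 0.0237). Wdr43, a processome subunit, was the other call, at -1.01. The processome gene with the least change was Nop14 (chr5:34638536-34660148), at 58.6, 111 and 138 against 67.8, 93.9 and 69.9 CPM: it was higher in quiescence in experiment 5 and lower in experiments 7 and 9. It was not called in either fit (log2 fold change -0.41, SE 0.28, adjusted p = 0.337, or 0.204 with the block). Heatr1, Utp15, Wdr75, Utp20, Emg1 and Nat10, the last the acetyltransferase of 18S RNA, had log2 fold changes of -0.57 to -0.79 and were called with the block only.

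Late small-subunit assembly was covered by 6 genes with a median log2 fold change of -0.70, of which 2 were called, and 5 with the block. The calls were Tsr1, a late maturation factor, at -0.83 (SE 0.26, adjusted p = 0.0445) and Ltv1, which helps the export of the small subunit, at -0.76 (SE 0.22, adjusted p = 0.0351). Rrp12 (chr19:41862851-41896173), which takes pre-ribosomes out of the nucleus, stood at 41.0, 85.1 and 140 CPM in proliferating and 30, 60.8 and 42.3 CPM in quiescent control libraries. Its log2 fold change of -1.0 was the largest of the 6, but the proliferating libraries spread so far that its SE was 0.43, the widest of all 40 genes, and its adjusted p was 0.128, or 0.0195 with the block. Pno1 (chr11:17203198-17211568), the partner of the nuclease Nob1 at the 3′ end of 18S RNA, stood at 68.8, 80.6 and 90.9 against 74.7, 75.6 and 84.7 CPM. The quiescent values lay inside the proliferating range (log2 fold change -0.03, SE 0.12, adjusted p = 0.879), whereas Nob1 had a log2 fold change of -0.64 and was called with the block (adjusted p = 0.0232).

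None of the 8 large-subunit genes was called, with a median log2 fold change of -0.58; 5 had an unadjusted p under 0.05, and 6 were called with the block. The largest change was that of Nop16 (chr13:54584185-54590090), at 26.3, 46.3 and 70.9 CPM in proliferating and 22.2, 27.8 and 31.8 CPM in quiescent control libraries (log2 fold change -0.81, SE 0.35, adjusted p = 0.129, or 0.0327 with the block). The smallest was that of Pes1 (chr11:3963975-3980004), at 144, 174 and 191 against 115, 143 and 141 CPM. Its groups were barely separate, and the log2 fold change of -0.35 (SE 0.14) had an adjusted p of 0.0893, or 0.0213 with the block. Pes1 works in one complex with Bop1 and Wdr12, the PeBoW complex of large-subunit maturation, whose log2 fold changes were -0.46 and -0.54; with the block Bop1 was called and Wdr12 was not (adjusted p = 0.0342 and 0.0732).

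The median for the 6 nucleolar chaperones, helicases and regulators was a log2 fold change of -0.99; 4 were called lower, and all 6 with the block. Npm1 (chr11:33152287-33163206) stood at 886, 1690 and 1850 CPM in proliferating and 490, 787 and 723 CPM in quiescent control libraries. All quiescent libraries lay below all proliferating ones, and Npm1 fell to 45.2% (log2 fold change -1.14, SE 0.29, adjusted p = 0.0184). Ncl fell by 0.98 on the log2 scale with the second smallest p of the 40 genes (SE 0.20, adjusted p = 0.00629), and Nolc1, a chaperone of snoRNPs, fell by 1.02. Ddx21 (chr10:62580251-62602281), a nucleolar RNA helicase, stood at 271, 423 and 492 CPM against 208, 286 and 238 CPM. The quiescent library of experiment 7 lay just above the proliferating library of experiment 5, and the log2 fold change was -0.70 (SE 0.22, adjusted p = 0.0489). Mybbp1a, a regulator of polymerase I and of p53, missed the threshold at -1.0 (adjusted p = 0.0505, or 0.00512 with the block), as did Gnl3, nucleostemin, at -0.92 (adjusted p = 0.0982, or 0.0093 with the block).

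Across the roles, 6 genes were called in neither fit: Nop10, Polr1c, Nop14, Pno1, Wdr12 and Rrp1b. Their log2 fold changes ran from -0.59 for Rrp1b to 0.01 for Nop10. For the 8 genes with an E-box the median was -0.77, from -1.01 to -0.03, with 3 called and 7 with the block. The 26 matched genes without an E-box had a median of -0.73, from -1.83 to 0.01, with 9 called and 21 with the block.

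**Figure D3:**
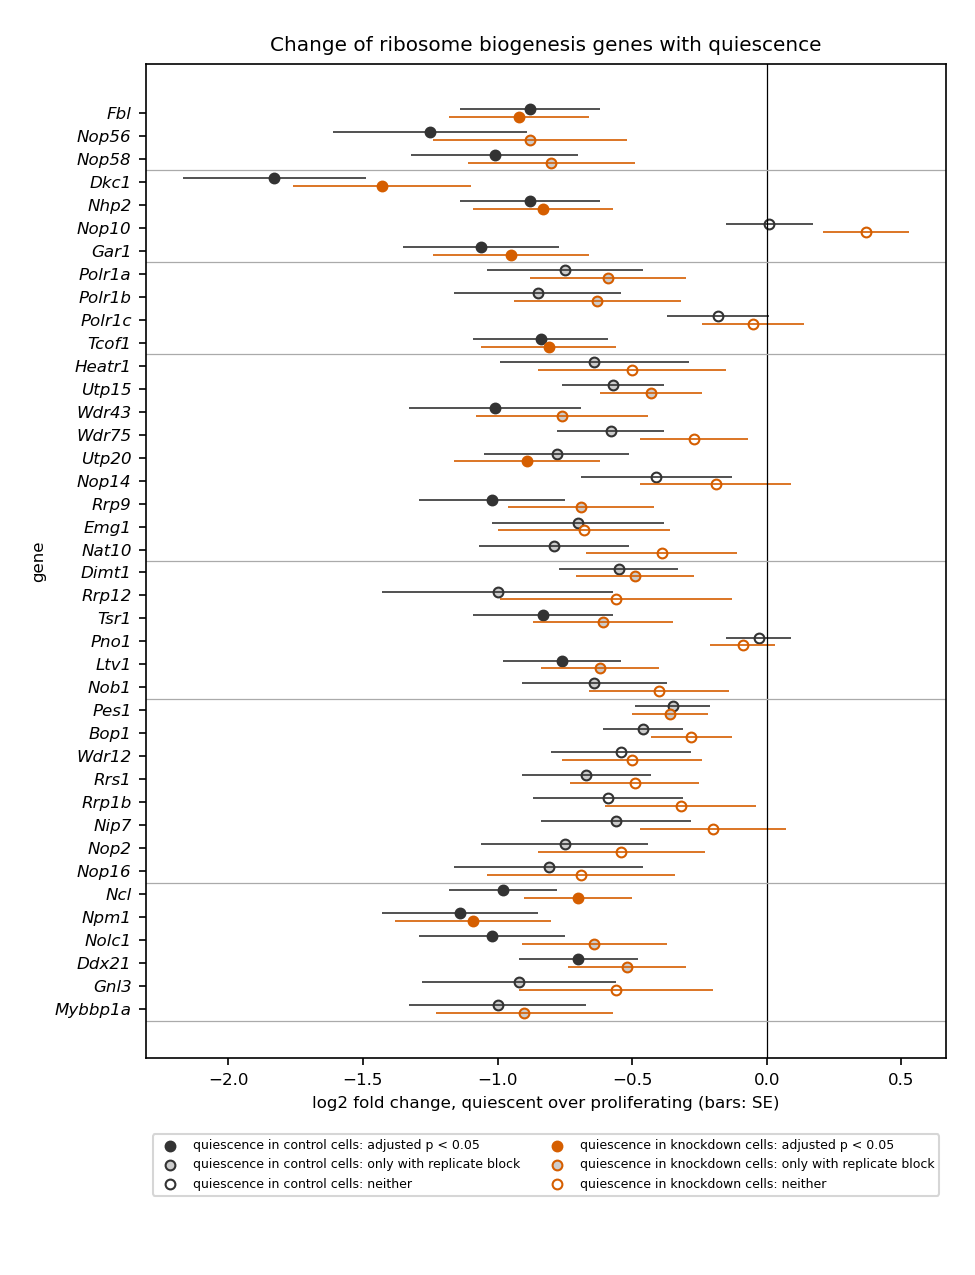
For each of the 40 genes the point gives the log2 fold change of quiescent over proliferating cells and the bar its SE, in control (black) and knockdown cells (orange), with filled points for adjusted p under 0.05, grey points for genes called only with the experiment as a block, and open points for the rest. Nearly all points lie left of 0 in both, from -1.83 for Dkc1 in control cells to 0.37 for Nop10 in knockdown cells.

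The size of the difference was not the same in the 3 experiments. The median within-experiment difference in log2 CPM was -0.39 in experiment 5, -0.55 in experiment 7 and -1.15 in experiment 9. For 39 of 40 genes the difference was most negative in experiment 9, and for 37 it was least negative in experiment 5. The spread lay chiefly in the proliferating libraries: in proliferating control cells all 40 genes were lowest in experiment 5, as were 35.4% of all tested genes, and 36 were highest in experiment 9. In proliferating knockdown cells 39 of 40 were lowest in experiment 5, against 35.8% of tested genes. The mean log2 CPM of the 40 genes was 6.11, 6.81 and 7.07 in the proliferating control libraries of experiments 5, 7 and 9, and 5.73, 6.21 and 5.92 in the quiescent ones. For 27 genes the proliferating control library of experiment 5 lay below the quiescent control library of experiment 7, while for 38 genes the proliferating control library of experiment 9 lay above every quiescent library of either hairpin. The share of all tested genes was counted only for being lowest in experiment 5 in the proliferating groups. The other counts of this paragraph have no such share beside them.

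Proliferation markers fell with quiescence too. The mean log2 CPM of 8 markers, Mki67, Top2a, Ccnb1, Ccna2, Cdk1, Mcm2, Pcna and Rrm2, was 6.89, 7.41 and 7.38 in the proliferating control libraries of experiments 5, 7 and 9 and 1.63, 3.22 and 3.58 in the quiescent control libraries. All 8 were lower with quiescence in control cells. Among proliferating control libraries experiment 5 was the lowest on this measure, and experiments 7 and 9 were nearly equal. The summed level of the markers was 1090 to 1480 CPM in proliferating and 90.7 to 141 CPM in quiescent control libraries. Their median within-experiment difference in log2 CPM was -5.47, -4.87 and -4.27 in experiments 5, 7 and 9. Some markers lay near the floor in quiescent control cells, such as Mki67 at 0.552 CPM in experiment 5. The size and order of these marker differences are therefore uncertain. For the 40 genes the median difference was -0.39, -0.55 and -1.15. The part of cycling in the ribosome biogenesis result was not tested.

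The count of genes called rested on single libraries. It was 35 without the proliferating control library of experiment 5 and 2 without that of experiment 7 or that of experiment 9. It was 2 without the quiescent control library of experiment 5, 11 without that of experiment 7 and 3 without that of experiment 9. When experiment 5, 7 or 9 was left out whole it was 28, 1 and 0, or 36, 11 and 13 with the block. The median log2 fold change kept its sign in each of these fits, and it was -0.51 without the proliferating control library of experiment 9 and -1.02 without that of experiment 5.

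**Figure D4:**
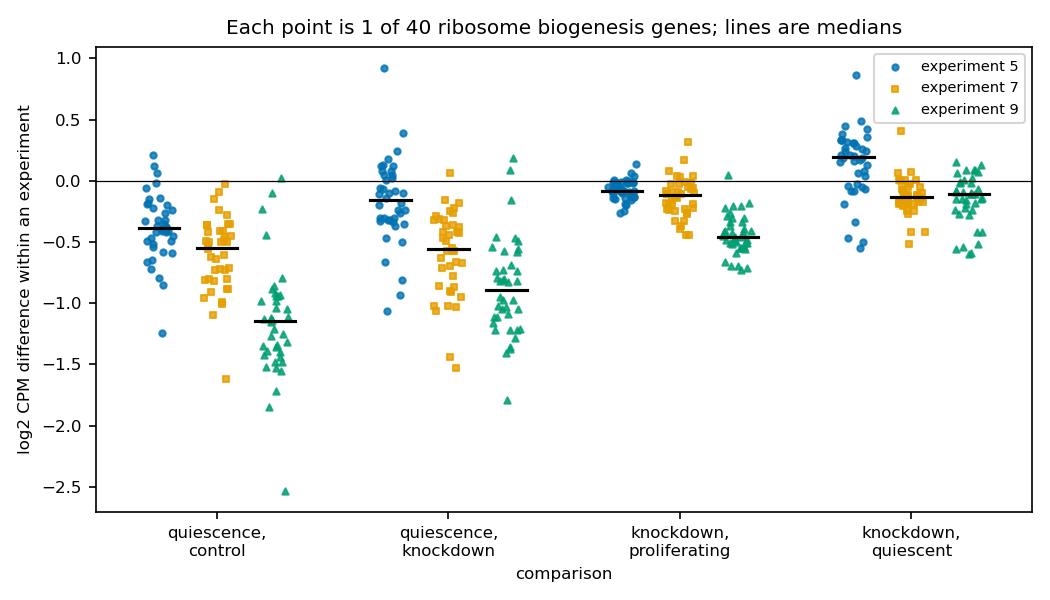
Each point is 1 of the 40 genes and gives its difference in log2 CPM within 1 experiment, for the 4 comparisons named on the horizontal axis, with colour and marker for the experiment and a line at the median of the 40. For quiescence in control cells the medians step down from -0.39 to -0.55 and -1.15, while for knockdown in quiescent cells they lie at 0.20, -0.13 and -0.11.

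Quiescence in knockdown cells showed the same direction with fewer calls. Here 8 of the 40 genes were called lower and none higher, against 10.8% and 7.59% of all tested genes, and 22 were called lower with the experiment as a block and none higher, against 17.2% and 15.9%. The 8 were Fbl, Dkc1, Nhp2, Gar1, Tcof1, Utp20, Ncl and Npm1, so 3 of the 4 box H/ACA genes were called in both hairpin arms. The median log2 fold change was -0.58, from -1.43 for Dkc1 to 0.37 for Nop10, and its within-experiment values were -0.16, -0.56 and -0.89 for experiments 5, 7 and 9. The difference was below 0 in all 3 experiments for 27 genes (27.3% of tested genes), and the groups did not overlap for 13 (19.1% of tested genes).

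By role, the median was -0.88 for box C/D, -0.89 for box H/ACA, -0.61 for polymerase I, -0.50 for the early processome, -0.53 for late small-subunit genes, -0.43 for large-subunit genes and -0.67 for the nucleolar group. Dkc1 stood at 39.6, 68.9 and 49.9 CPM in proliferating and 20.7, 23.7 and 14.4 CPM in quiescent knockdown libraries, with no overlap (SE 0.33, adjusted p = 0.0136). Npm1 stood at 838, 1480 and 1140 against 594, 548 and 489 CPM, also with no overlap (log2 fold change -1.09, SE 0.29, adjusted p = 0.0248). Utp20, a long scaffold protein of the processome that was not called in control cells without the block (adjusted p = 0.0653), had a log2 fold change of -0.89 (SE 0.27, adjusted p = 0.0437). The count of 8 was 13, 0 and 1 without the proliferating knockdown library of experiment 5, 7 or 9, and 1, 3 and 0 without the quiescent one. Without experiment 5, 7 or 9 as a whole it was 18, 0 and 0, or 27, 4 and 4 with the block.

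Knockdown in proliferating cells changed none of the 40 genes past the threshold. No gene had an adjusted p under 0.05 in edgeR with or without the block or in DESeq2, none reached 0.05 before adjustment in the unblocked fit and 1 did in the blocked fit, where 0.0242% of tested genes were called in either edgeR fit. The log2 fold changes, knockdown over control, had a median of -0.24, ran from -0.47 to 0.13 and were below 0 for 39 genes. In all 3 experiments 29 genes were lower with knockdown, against 21.3% of tested genes, and the medians within experiments 5, 7 and 9 were -0.08, -0.12 and -0.46. In experiment 9, 39 of 40 genes were lower with knockdown, as were 6190 of the 12406 tested genes. The median was -0.03 without the proliferating control library of experiment 9, -0.49 without that of experiment 5 and -0.05 without the proliferating knockdown library of experiment 5.

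The most negative values were those of Mybbp1a and Rrp1b. Mybbp1a stood at 328, 589 and 815 CPM in control and at 299, 435 and 517 CPM in knockdown libraries of experiments 5, 7 and 9 (log2 fold change -0.47, SE 0.32). Rrp1b, a nucleolar protein of large-subunit maturation, stood at 23.7, 39.2 and 41.8 against 21.7, 31.2 and 25.4 CPM (log2 fold change -0.42, SE 0.28). Both were lower with knockdown in each experiment, and for both the groups overlapped widely. The least negative were Pes1, at 144, 174 and 191 against 149, 172 and 165 CPM (log2 fold change -0.06, SE 0.14), and Nop10, at 38.7, 43.3 and 43.9 against 38.4, 53.9 and 45.5 CPM (0.13, SE 0.16). With SEs of this size, changes of the median's extent were not detectable for single genes. Proliferation markers differed in both directions between these arms, with a mean log2 CPM of 6.42, 7.27 and 7.56 in knockdown against 6.89, 7.41 and 7.38 in control libraries, and their part in these values was not tested.

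Knockdown in quiescent cells also called none of the 40, with 1 gene at an unadjusted p under 0.05, 3 with the block and none called in DESeq2. Over all tested genes 0.435% were called, and 3.55% with the block. The log2 fold changes had a median of -0.02 and ran from -0.40 for Utp20 to 0.48 for Nop10. Within experiment 5 the median was 0.20, above 0, while within experiments 7 and 9 it was -0.13 and -0.11; 10 genes were lower and 3 higher with knockdown in all 3 experiments, where 21.3% and 25.4% of all tested genes were. The median moved with single libraries: it was 0.10 without the quiescent control library of experiment 7 and -0.14 without that of experiment 5.

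The largest log2 fold change was that of Nop10. It stood at 72.8, 56.1 and 48.6 CPM in the quiescent knockdown libraries against 40.2, 42.3 and 44.4 CPM in the quiescent control libraries, so every knockdown library lay above every control library, as for 10.2% of all tested genes. The difference was 0.86, 0.41 and 0.13 on the log2 scale in experiments 5, 7 and 9, and the log2 fold change of 0.48 (SE 0.16) had an adjusted p of 0.248, or 0.124 with the block. Without the knockdown library of experiment 5 it was 0.31. Pno1 was the only member whose groups were separate the other way, at 74.7, 75.6 and 84.7 CPM in quiescent control and 72, 66.4 and 70.1 CPM in quiescent knockdown libraries, as for 8.85% of all tested genes (log2 fold change -0.17, SE 0.12, adjusted p = 0.637). The partners of Nop10 in the H/ACA particle had log2 fold changes of 0.04 for Dkc1, -0.15 for Nhp2 and -0.14 for Gar1. Nip7, a factor of 60S maturation, was the next highest, at 37.1, 50.4 and 49.7 CPM in control and 49.7, 52.6 and 48.9 CPM in knockdown libraries (0.14, SE 0.28).

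The most negative were Utp20 and Tcof1. Utp20 stood at 98.7, 139 and 136 CPM in quiescent control and 67.4, 121 and 94.7 CPM in quiescent knockdown libraries (log2 fold change -0.40, SE 0.27, adjusted p = 0.635). Tcof1 stood at 55.8, 75.4 and 51.0 against 39.4, 56.1 and 44.6 CPM (-0.38, SE 0.24, adjusted p = 0.609). Both were lower with knockdown in each experiment, and for both the groups overlapped. The mean log2 CPM of the 8 proliferation markers was 2.93, 4.76 and 4.03 in quiescent knockdown and 1.63, 3.22 and 3.58 in quiescent control libraries, higher with knockdown in each experiment, and their summed level was 129 to 259 against 90.7 to 141 CPM. Their part in the values of the 40 genes was not tested.

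The difference between the 2 knockdown effects, quiescent minus proliferating, was tested as an interaction. It was called for none of the 40 genes and for 0% of all tested genes, with or without the block; no member had an unadjusted p under 0.05, and DESeq2 called none of the 40. The values had a median of 0.18 and ran from -0.11 to 0.43, with 21 genes above 0 in all 3 experiments against 16.4% of tested genes. The medians within experiments 5, 7 and 9 were 0.29, 0.04 and 0.31. The median was -0.03 without the proliferating control library of experiment 9, 0.01 without the proliferating knockdown library of experiment 5 and 0.42 without the proliferating control library of experiment 5. The 2 quiescence comparisons and the 2 knockdown comparisons share libraries, so their values are set side by side and not correlated.

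A feature the list did not use was the presence of snoRNA genes inside the genes themselves, as most snoRNAs of mammals are cut from introns of host genes. Of the 40 genes, 7 (17.5%) held at least 1 annotated snoRNA gene, against 181 of 10893 tested genes with an annotation (1.66%). The 7 were Nop56 with 5 snoRNA genes, among them Snord57 and Snord110, Nop58 with 4, Wdr43, Ncl and Gnl3 with 3 each, Tsr1 with 2 and Dkc1 with 1, which makes 21 in all. Of these 7 hosts, 6 were called lower with quiescence in control cells, Gnl3 being the exception, as were 9 of the 33 other members and 11.7% of all tested genes. With the block all 7 hosts and 27 of the 33 others were called, against 18.5% of all tested genes. The libraries were made from polyA RNA, so the snoRNAs themselves were not measured.

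Other genes of the same machinery were taken from lists. Of 117 further tested genes, quiescence in control cells lowered 39 and raised none, with a median log2 fold change of -0.49; these are 33.3%, against 11.7% of all tested genes. With the block 73 were called lower, or 62.4% against 18.5%. By list, 4 of 12 other polymerase I genes were called lower, 12 of 38 small-subunit genes, 14 of 46 large-subunit genes and 9 of 21 genes of snoRNP assembly and the exosome. The strongest was Lyar, a nucleolar zinc-finger protein, at 21, 46.4 and 55.9 CPM in proliferating and 13.5, 18.2 and 15.9 CPM in quiescent control libraries (log2 fold change -1.37, SE 0.34, adjusted p = 0.0168). Exosc8, a ring subunit of the RNA exosome that trims precursor ends, followed at -1.31 (SE 0.26, adjusted p = 0.00534). The smallest called falls were those of Dcaf13, a processome protein, at -0.43 and of the exonuclease Xrn2 at -0.37. In knockdown cells 16 of the 117 were called lower with quiescence, with a median of -0.39, and at 13.7% this share was near the 10.8% of all tested genes; with the block it was 43 genes, or 36.8% against 17.2%. Knockdown called none of the 117 in either state without the block, the medians being -0.18 (proliferating) and -0.05 (quiescent). The blocked fit called 1 of them lower, in quiescent cells.

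Myc itself stood at 95.6, 175 and 234 CPM in proliferating and 49.1, 110 and 70.3 CPM in quiescent control libraries. Myc was lowest in experiment 5 and highest in experiment 9 among the proliferating control libraries, and lowest in experiment 5 and highest in experiment 7 among the quiescent ones, where 30 of the 40 genes were lowest and 35 were highest. The shares of all tested genes in these quiescent libraries were not counted. Whether Myc had a part in the levels of the 40 genes was not tested. Its log2 fold change was -1.14 (SE 0.38) with an adjusted p of 0.0578, or 0.00319 with the block, and it ranged from -0.76 without experiment 9 to -1.48 without the quiescent control library of experiment 7. Of 11 tested genes of the Myc network, 1 was called lower and 1 higher with quiescence in control cells. These shares were near the 11.7% and 8.33% of all tested genes. With the block 3 were called lower and 2 higher, against 18.5% and 16.8% of all tested genes. The gene called lower without the block was Mxd3, a Max partner that is at its height in S phase. Mxd3 went from 1.18, 1.39 and 0.852 CPM to 0.0690, 0.0612 and 0.179 CPM (log2 fold change -3.36, SE 0.68, adjusted p = 0.00602). The quiescent values lie near the floor, so the size of this fall is uncertain. Quiescence raised Mnt, a repressor that competes with Myc for Max, from 59.3, 64.5 and 63.8 CPM to 78.0, 79.4 and 74.1 CPM (log2 fold change 0.30, adjusted p = 0.0481). In knockdown cells Myc had a log2 fold change with quiescence of -0.84 (adjusted p = 0.152, or 0.0211 with the block). There 2 of the 11 network genes were called lower and none higher, against 10.8% and 7.59% of all tested genes. Mnt was not called there (log2 fold change 0.08, adjusted p = 0.617).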

How the data were processed

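PolyA RNA of 12 libraries (average RNA integrity number 9.7) was sequenced after stranded library preparation, per the labels' protocols. The deposited table holds raw counts per gene; Bowtie, TopHat, HTSeq, DESeq2 and mm10 are named in the submitters' processing notes, without versions, and the strand setting of the counting is not given in the sources used here, so overlapping genes are uncertain. The spike-ins named in the labels were not used here. With 14524429 to 21987539 counts per library, the spread between experiments and not counting error limits the precision.

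Counts were fitted with edgeR 4.0.16 in R 4.3.3 (glmQLFit, glmQLFTest, TMM scaling, filterByExpr with a minimum count of 10) with 4 group means over all 12 libraries, and p-values were adjusted by Benjamini-Hochberg over 12406 genes, threshold 0.05. SEs are the fold change over the square root of F. CPM use TMM-scaled totals; log2 CPM add a prior count of 2. Levels per kilobase use exon-union lengths from GENCODE M21. Alternatives were the experiment as a replicate block, DESeq2 1.42.0, other scalings and filters, and leaving out libraries. The labels give the experiment as a batch, and libraries of the same experiment deviated from their group means together (mean r 0.526 over 18 pairs of libraries from different groups, 0.225 to 0.789), so the block pairs them. The mean of -0.259 over 36 pairs from different experiments is no separate evidence, since deviations within a group sum to about 0. Replicates differed beyond counting noise (chi-square per degree of freedom 36.6 to 99.7).

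The 40 genes, the lists and the tests were chosen with earlier results of these data known. Genes given with values in each library were the extremes of each role for quiescence in control cells, the 2 highest and 2 lowest for each knockdown comparison, the extremes of the further lists, Myc and Stag2. Other genes named with values were chosen after these were seen. Protein features were not analysed here.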

Additional observations from a re-analysis of the deposited data

Results flagged for a closer look

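In 2 of the 40 genes the knockdown difference was below 0 in all 3 experiments in proliferating cells and above 0 in all 3 in quiescent cells. Of all tested genes, 21.3% were lower in all 3 in proliferating cells and 25.4% were higher in all 3 in quiescent cells. The share of all tested genes with both was not counted, so the 2 genes are not set apart from it. For Wdr75, a processome subunit, the differences in log2 CPM were -0.08, -0.07 and -0.41 in proliferating and 0.24, 0.07 and 0.06 in quiescent cells, for experiments 5, 7 and 9. For Rrp12 they were -0.04, -0.16 and -0.54 in proliferating and 0.33, 0.01 and 0.07 in quiescent cells. The tested difference between the states was 0.31 (SE 0.29) for Wdr75 and 0.43 (SE 0.61) for Rrp12, and neither passed the threshold (adjusted p = 1.0 for both in edgeR, 0.999 for both with the block).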

How the results depend on the processing

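For quiescence in control cells scaling and filters moved the calls of lower genes little, leaving them at 11 to 16. The settings were DESeq2 size factors, library totals, upper-quartile scaling, no filter and a mean count of at least 50. In knockdown cells library totals alone gave 4 lower genes in place of 8, and the other settings gave 7 or 8. Kept as a replicate block, which pairs the libraries of each experiment, the fit called 34 and 22 lower genes in control and knockdown cells in place of 15 and 8, and over all genes 4374 and 4096 in place of 2481 and 2279, and 440 in place of 54 for knockdown in quiescent cells; it changed no other call of a count beside those given with the genes. DESeq2 called 25 lower genes with quiescence in control cells and, over all genes, 12 with knockdown in proliferating cells, 390 in quiescent cells and 6 for the interaction. Only the libraries of the contrast, a fit in which fewer libraries estimate the spread, gave 2 lower genes in control cells and 1582 genes in all. In knockdown cells such a fit gave 8 lower genes, as in the main fit, and 1921 genes in all. For knockdown in proliferating cells it gave 1 gene. Leaving out a single library gave 2 to 35 lower genes in control and 0 to 13 in knockdown cells, and over all genes 1394 to 3078 and 1186 to 2029 for quiescence, and 5 to 60 for knockdown in quiescent cells. Leaving out a whole experiment gave 0 to 28 and 0 to 18 lower genes, and over all genes 592 to 1953 and 701 to 1629 for quiescence and 1 to 2 for knockdown in quiescent cells, while knockdown in proliferating cells called 0 without a whole experiment and 1 to 2 without a library. Of those whole-experiment fits, the lack of experiment 9 gave 892 and 736. Adding the block to the loss of experiment 5, 7 or 9, an alternative chosen after the data were seen, gave 36 lower genes without experiment 5 in control cells and 27, 4 and 4 in knockdown cells, and over all genes 4129 and 3659 without experiment 5 for quiescence, 1, 0 and 0 for knockdown in proliferating and 101, 26 and 13 in quiescent cells. The median of the 40 genes went from -0.49 to -0.03 for knockdown in proliferating cells and from -0.03 to 0.42 for the interaction when single libraries were left out. Reversed signs concerned values near 0. For quiescence in control cells Nop10 ran from -0.04 to 0.06 without single libraries, among them -0.02, and was -0.01 without experiment 5 with and without the block. Pno1 was 0.02 on library totals, ran from -0.13 to 0.07 without single libraries, was 0.01 without experiment 9, and was 0.00 and 0.02 with the block and without experiment 7 or 9. For knockdown in proliferating cells Nop10 ran from 0.00 to 0.24 and Pes1 from -0.17 to 0.03 without single libraries, and Pes1 was 0.02 without experiment 9 with and without the block. The causes were not tested. With 3 libraries a group, differences of about the SEs given are not detectable.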
